A study of Mus musculus with 23 samples.

Results

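Unirradiated back skin painted with AG825 was set against unirradiated back skin painted with its solvent, dimethyl sulfoxide (DMSO). AG825 is a tyrphostin that inhibits the tyrosine kinase activity of Erbb2 (HER2/neu). The comparison took every array that the labels give as sham-exposed, which was 8 of the 23 arrays of the study: 4 of AG825 skin (replicates B, C, D and E) and 4 of DMSO skin (replicates A, B, C and D). The main log2 values covered 19645 probe sets on each array. Probe sets are short oligonucleotide sets that each measure 1 transcript or several related ones.

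RNA came from whole dorsal skin of female mice of the outbred CD-1 stock and was hybridised to Affymetrix MOE430A arrays. Mice of the AG825 sham group had received 4 mg of AG825 in DMSO on the skin, and mice of the DMSO sham group DMSO alone. Sham exposure, with no ultraviolet light (UV), came 2 h after painting and the skin was taken 6 h after sham exposure. The other 15 arrays were of skin exposed to 10 kJ/m2 of UV, taken 6 h later (4 arrays of AG825 skin and 4 of DMSO skin) or 24 h later (3 of AG825 skin and 4 of DMSO skin). All groups share the solvent, and no group was left unpainted. The labels do not say whether the replicates are separate mice, and the spread behind each p-value may be that between mice or a technical one.

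Erbb2 belongs to a family of receptor tyrosine kinases with Egfr, Erbb3 and Erbb4. It has no ligand of its own and signals as the partner of the other members, mainly through the Ras, Raf and ERK kinases and through PI3K and Akt. In skin the family is known for control of keratinocyte growth, differentiation and repair, and ligands of the family can be shed after injury or irradiation. The question here is how transcript levels under the inhibitor compared with those under its solvent alone when no UV was given.

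No probe set passed the test between AG825 sham and DMSO sham skin. In the limma model over all 23 arrays, 0 of 19645 probe sets passed an adjusted p of 0.05 (0%), and the lowest adjusted p was 0.879, for Gnmt. At an unadjusted p under 0.05 there were 193 probe sets (0.982% of those tested), of which 85 were higher and 108 lower in AG825 skin. A fit of the 8 sham arrays alone also passed 0 probe sets and left 256 at an unadjusted p under 0.05. If no probe set differed, a share of 0.05 would be expected under that threshold, and both counts were below it. The reason was not tested.

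The differences that were measured were small. The log2 difference, AG825 minus DMSO, ran from -1.06 to 1.13 over all probe sets, where 1 unit is a 2-fold difference. Its median was -0.02, and the median size without regard to sign was 0.0677. The difference was negative for 11224 probe sets, or 57.1%, and positive for 8421. A size of 2-fold or more was reached by 6 probe sets. Plac8, Cxcl2, Lyve1 and Slfn4 were higher in AG825 skin, by 1.13, 1.08, 1.05 and 1.01 on the log2 scale. Selenbp1 and Baiap2l1 were lower, with differences of -1.06 and -1.01. A further probe set of Baiap2l1 differed by -0.86. On it AG825 D, AG825 E and DMSO D stood at 8.038, 8.277 and 8.206, and the remaining arrays between 11.360 and 11.512. Of these 6 probe sets, the 4 and 4 arrays did not overlap for those of Cxcl2 and Lyve1 and overlapped for the other 4. Over all probe sets the share without overlap was 0.896%. The 6 were picked by the size of the difference, which favours a lack of overlap. The lack of overlap is therefore not evidence for either gene.

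The arrays bound what could have been missed. The median standard error (SE) of a difference was 0.134, and the median 95% confidence interval reached 0.278 to either side of the estimate. That interval lay wholly inside a 2-fold difference in both directions for 19130 probe sets, or 97.4%. Among the 13579 probe sets called present on at least 4 of the 8 arrays the share was 96.3%. These intervals are not adjusted for the number of probe sets. A single probe set would need an unadjusted p of 2.54e-06 to pass, which at the median SE is a log2 difference of 0.86, or 1.81-fold. The number of arrays limits this precision, and p-values that miss the threshold do not show that the skins were alike.

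**Figure D1:**
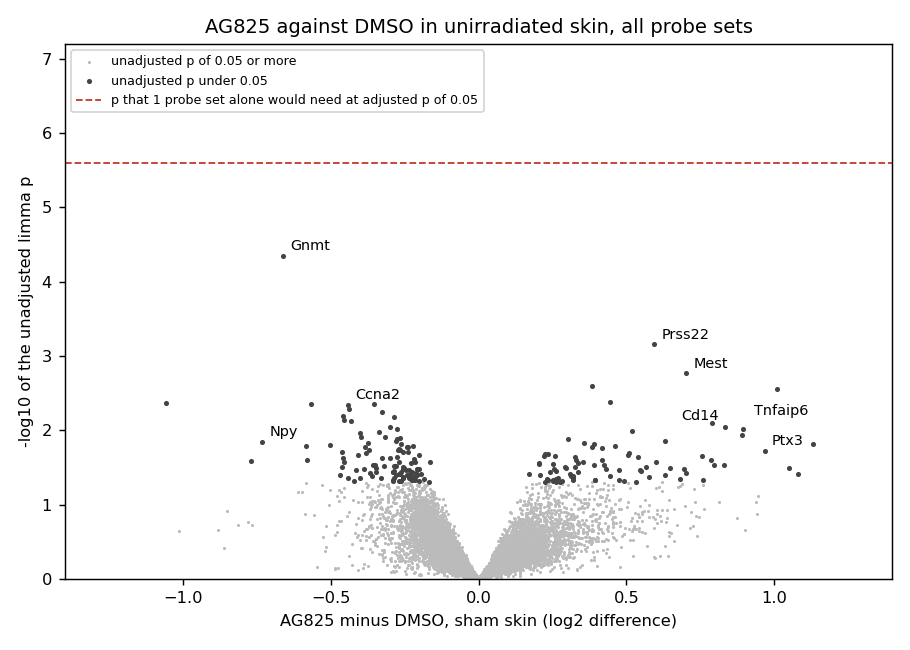
Each point is 1 of 19645 probe sets; the x axis is the log2 difference, AG825 minus DMSO, in sham skin and the y axis the negative log10 of the unadjusted limma p. Dark points are the 193 probe sets at an unadjusted p under 0.05, and the dashed line is the p of 2.54e-06 that 1 probe set alone would need; no point reaches it, with Gnmt the nearest.

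The arrays least like the rest of the 8 were AG825 D and DMSO A. The mean correlation across probe sets with the other sham arrays was 0.973 for AG825 D and 0.979 for DMSO A. Pairs within AG825 sham correlated at 0.970 to 0.991, pairs within DMSO sham at 0.973 to 0.991 and pairs between the groups at 0.970 to 0.993, so between-group pairs reached as high as within-group pairs. The first principal component of the 8 arrays held 36.6% of the variance. AG825 D stood at 41.0 and DMSO A at 21.1 on it, with the other 6 arrays between -18.4 and -2.89. The share of probe sets called present was 68.0 ± 1.35% in AG825 sham and 67.3 ± 2.56% in DMSO sham skin (SD, n = 4 each), a difference of 0.691 percentage points (exact permutation test, two-sided, p = 0.629, where the smallest p possible is 0.0286).

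The gene nearest to the threshold was Gnmt, glycine N-methyltransferase, which uses S-adenosylmethionine to methylate glycine. Its log2 level was 7.517, 7.673, 7.626 and 7.702 on AG825 B, C, D and E, against 8.558, 8.130, 8.384 and 8.090 on DMSO A, B, C and D. All 4 AG825 arrays lay below all 4 DMSO arrays. The difference was -0.66 ± 0.129 (SE) with an adjusted p of 0.879 (limma). The size depended on how the probes were summarised, since the same probe set gave -0.11 from the dChip signal and -1.34 from the GCOS signal at a pseudocount of 16, with an adjusted p of 0.472 in GCOS. In UV skin the drug difference of Gnmt was 0.01 at 6 h and -0.13 at 24 h.

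Over all probe sets the 4 and 4 arrays did not overlap for 75 with AG825 higher (0.382%) and for 101 with AG825 lower (0.514%). If no probe set differed, a share of 0.0286 would be expected over both directions, more than was found. The genes named next are the 10 of each direction with the smallest unadjusted p among those that were called present on all arrays of a group. They were picked by that p and by the lack of overlap, so neither is evidence, and none passed: apart from Gnmt each had an adjusted p that rounds to 1.

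Among those higher in AG825 skin, Prss22, a serine protease, had log2 levels of 10.006, 9.731, 9.306 and 9.368 on AG825 B to E, against 8.792, 9.052, 8.914 and 9.273 on DMSO A to D. The lowest AG825 array stood just above the highest DMSO array, and the difference was 0.59 ± 0.149 (SE). Prss22 was also higher in AG825 than in DMSO skin after UV, by 0.45 at 6 h and 0.48 at 24 h, which did not pass there either. Mest, an imprinted gene expressed from the paternal copy, had 7.811, 7.850, 8.011 and 7.779 in AG825 skin, against 7.184, 7.228, 7.405 and 6.828 in DMSO skin. The AG825 arrays lay close together, and the difference was 0.70 ± 0.195. The Mest difference in UV skin was -0.09 at 6 h and at 24 h.

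The 4 largest differences of the 10 were those of Ptx3, Tnfaip6, Cd14 and Sectm1a. Cd14, the lipopolysaccharide co-receptor of monocytes and macrophages, had 8.467, 8.537, 9.080 and 8.557 in AG825 skin, against 7.821, 7.451, 7.932 and 8.108 in DMSO skin. AG825 D was the highest array, and the difference was 0.83 ± 0.289. The differences of Ptx3, a soluble pattern recognition protein, and Tnfaip6, a hyaluronan-binding protein induced by TNF and interleukin 1, were 0.97 ± 0.380 and 0.89 ± 0.314, against 0.56 and 0.46 from the dChip signal. Sectm1a, which encodes a secreted and transmembrane protein, differed by 0.79 ± 0.269. After UV these 4 genes had drug differences of -0.19 to -0.36 at 6 h; at 24 h Cd14 stood at -1.22, Ptx3 at -0.64, Tnfaip6 at -0.08 and Sectm1a at 0.79.

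The other 4 genes of that direction had smaller differences. Gdf10, a ligand of the TGF-beta superfamily, differed by 0.44 ± 0.138. Sox9, a transcription factor of hair follicle stem cells, had 9.158, 9.157, 9.245 and 9.014 in AG825 skin, against 8.488, 8.731, 8.952 and 8.730 in DMSO skin, a difference of 0.42 ± 0.162. Its other probe set differed by 0.05. Ccn2, a matricellular protein, had the narrowest AG825 group, with 9.098, 9.078, 9.095 and 9.198, against 8.607, 8.722, 8.716 and 8.867 in DMSO skin, a difference of 0.39 ± 0.148. Npr1, the receptor for atrial natriuretic peptide, differed by 0.23 ± 0.0902, against -0.11 from the dChip signal.

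Among the 10 genes lower in AG825 skin, Ccna2, cyclin A2, had log2 levels of 8.671, 8.791, 9.056 and 8.944 on AG825 B to E, against 9.538, 9.263, 9.312 and 9.117 on DMSO A to D. The highest AG825 array lay just below the lowest DMSO array, the difference was -0.44 ± 0.139, and a further probe set of the gene gave -0.42. Kif11, the kinesin motor of the bipolar spindle, also differed by -0.44 ± 0.141, while its other 2 probe sets gave -0.17 and -0.15. Ska2, a kinetochore protein, differed by -0.32 ± 0.115, and Brca1, a DNA repair protein, by -0.39 ± 0.148. The other 3 probe sets of Brca1 were at -0.21, -0.19 and -0.09, and the dChip signal of the first gave 0.06.

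Npy, neuropeptide Y, had 8.706, 8.636, 8.192 and 8.707 in AG825 skin, against 10.318, 8.861, 8.880 and 9.108 in DMSO skin. DMSO A was far above the other arrays, and the difference was -0.73 ± 0.273, against -0.35 from the dChip signal. Sat1, which acetylates spermidine and spermine, differed by -0.40 ± 0.146, against -0.16 from dChip, and Aldh1l1, an enzyme of folate metabolism, by -0.50 ± 0.192, although the second probe set of Aldh1l1 differed by -0.06. The transcription factor Sox5 differed by -0.37 ± 0.140, and its other 3 probe sets lay between -0.11 and 0.12. Zfp275, a zinc finger protein, differed by -0.30 ± 0.104.

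**Figure D2:**
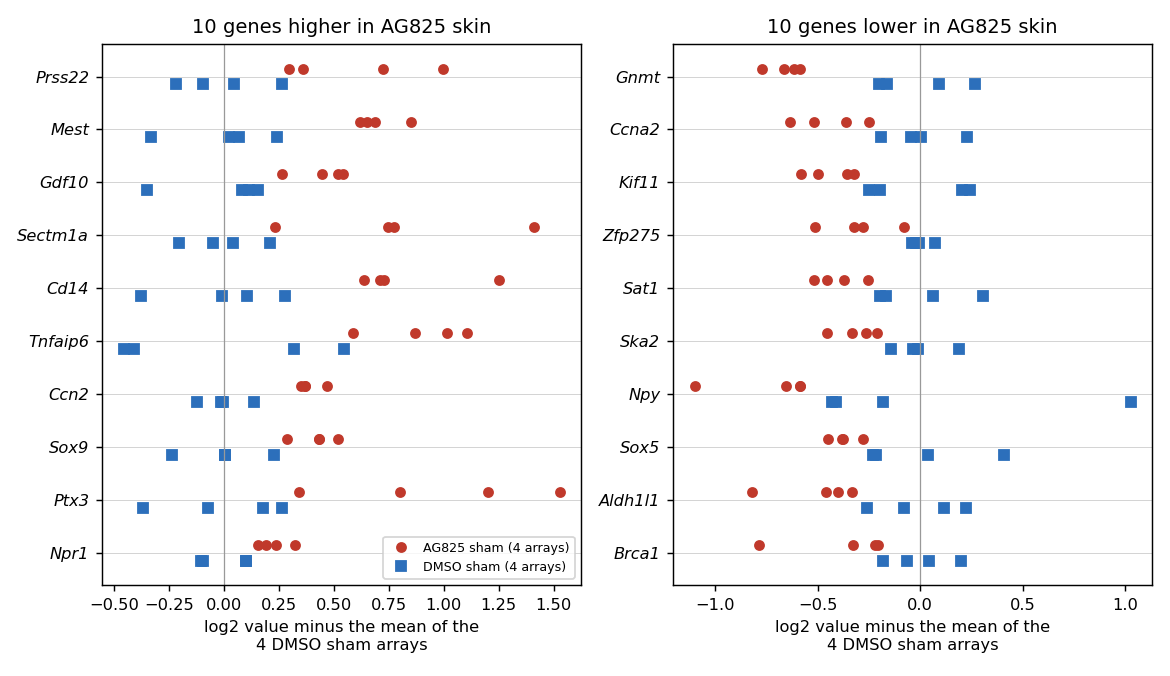
For the 10 genes with AG825 higher (left) and the 10 with AG825 lower (right), each point is 1 array, drawn as its log2 value minus the mean of the 4 DMSO sham arrays; circles are AG825 sham and squares DMSO sham arrays. The groups do not overlap in any row, which is how the genes were picked; DMSO A is the far right square of Npy, and none of the 20 genes passed.

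The receptor targeted by the drug differed little. Erbb2 had log2 levels of 8.746, 8.741, 8.792 and 8.978 on AG825 B to E, against 9.043, 8.941, 8.741 and 8.944 on DMSO A to D. The groups overlapped, and the difference was -0.10 ± 0.146 (SE; 95% interval -0.41 to 0.20), while the dChip signal gave 0.03. This measures Erbb2 transcript and not the kinase activity that AG825 inhibits, so it does not check whether the drug acted. The drug difference of Erbb2 in UV skin was 0.41 at 6 h and 0.09 at 24 h.

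The other receptors were close as well. Egfr, the receptor for epidermal growth factor, differed by -0.12 ± 0.132 (95% interval -0.39 to 0.15), and its other 4 probe sets lay between -0.13 and 0.00. Erbb3, which signals through its partners because its own kinase is weak, differed by -0.00 ± 0.214 (-0.44 to 0.44). Erbb4 was called absent on all 8 arrays and differed by 0.03 (-0.15 to 0.22).

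No ligand or feedback inhibitor passed. Errfi1, which binds ERBB receptors and blocks their kinase, had 9.920, 10.074, 9.901 and 10.084 in AG825 skin, against 9.270, 10.146, 10.060 and 9.293 in DMSO skin. The AG825 arrays sat at the level of the 2 higher DMSO arrays, with DMSO A and D lower, and the difference was 0.30 ± 0.207 (-0.13 to 0.73). Among ligands, Epgn (epigen) differed by 0.31 ± 0.209, Tgfa (transforming growth factor alpha) by 0.29 ± 0.268, Ereg (epiregulin) by 0.21, Hbegf (heparin-binding EGF-like growth factor) by 0.17 ± 0.347, Btc (betacellulin) by 0.12 and Egf by -0.10. Of the 16 members of this list that were measured, 0 passed, 11 were positive and 5 negative, and 0 had groups without overlap. Its median difference was 0.06, beside -0.02 for all probe sets, and lay between 0.03 (without DMSO A) and 0.13 (without DMSO D) when 1 array was left out. Areg was not analysed here.

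Genes downstream of ERK did not pass either. Dusp6, the ERK phosphatase that ERK signalling induces, had 10.258, 10.006, 10.298 and 9.743 in AG825 skin, against 10.234, 10.161, 10.124 and 9.583 in DMSO skin. The groups overlapped almost fully, and the difference was 0.05 ± 0.167 (-0.30 to 0.40). Fos, an immediate early transcription factor, differed by -0.37 ± 0.208 (-0.80 to 0.07), Etv4, an ETS factor downstream of ERK that was called present on 1 of the 8 arrays, by -0.33 ± 0.162 (-0.67 to 0.01), and Ccnd1, cyclin D1, by -0.30 ± 0.220 (-0.76 to 0.16). Egr1 and Myc, both induced by growth factors, differed by -0.08 and 0.06. In the list of 23 measured genes of ERK feedback and early response, 0 passed, 8 were positive and 15 negative, 0 were free of overlap, and the median was -0.08, or -0.00 without DMSO B. Targets of PI3K and FoxO signalling had 6 positive and 12 negative of 18, with 0 passing and a median of -0.06, or -0.03 without AG825 D.

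Genes that respond to foreign compounds were examined because a painted drug can induce its own metabolism. Cyp1a1, the classical target of the aryl hydrocarbon receptor, had 9.057, 8.981, 9.507 and 9.005 in AG825 skin, against 9.270, 9.090, 9.132 and 9.205 in DMSO skin. AG825 D was the highest of the 8 arrays and the other 3 AG825 arrays the lowest, and the difference was -0.04 ± 0.210 (-0.47 to 0.40). Cyp1b1, another cytochrome P450 target of that receptor, differed by 0.29 ± 0.241 (-0.21 to 0.80), and Nqo1, a quinone reductase, by 0.04 ± 0.103 (-0.18 to 0.25). Serpinb2, an inhibitor of plasminogen activators, had the largest difference of this list at 0.62 ± 0.298 (-0.00 to 1.24), with DMSO A at 8.117 below the other arrays. Of 9 measured genes 0 passed, 7 were positive and 2 negative, and the median was 0.16, or 0.05 without AG825 D and likewise without DMSO B.

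In the NRF2 oxidative stress list, 1 gene stood apart from the rest. Hmox1, heme oxygenase 1, had 9.736, 9.985, 10.129 and 9.831 in AG825 skin, against 8.268, 9.523, 9.706 and 9.595 in DMSO skin. The groups did not overlap, but DMSO A lay far below the other 3 DMSO arrays, whose highest was only just under the lowest AG825 array, and the difference was 0.65 ± 0.282 (0.06 to 1.23; adjusted p rounding to 1). Over the 21 measured genes of the list 0 passed, 12 were positive and 9 negative, and the median was 0.03. Genes of other drug metabolism split 13 and 13 with a median of 0.01. The highest unadjusted rank among these was Cyp2b10, a cytochrome P450 induced through the receptor CAR in liver, at 0.32 ± 0.141.

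No gene of the endoplasmic reticulum or DNA damage responses passed. The unfolded protein list had 14 positive and 4 negative of 18, with a median of 0.15, or 0.07 without DMSO A and 0.08 without AG825 D. Within it Hspa5, the chaperone BiP, differed by 0.26 ± 0.105 and Dnajb9, its co-chaperone, by 0.36 ± 0.200, with no overlap for Dnajb9. For p53 target genes 0 of 21 passed, 11 were positive, and the median was 0.01. Cdkn1a, the p21 inhibitor of cyclin-dependent kinases, differed by -0.06 ± 0.169 (-0.41 to 0.29).

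**Figure D3:**
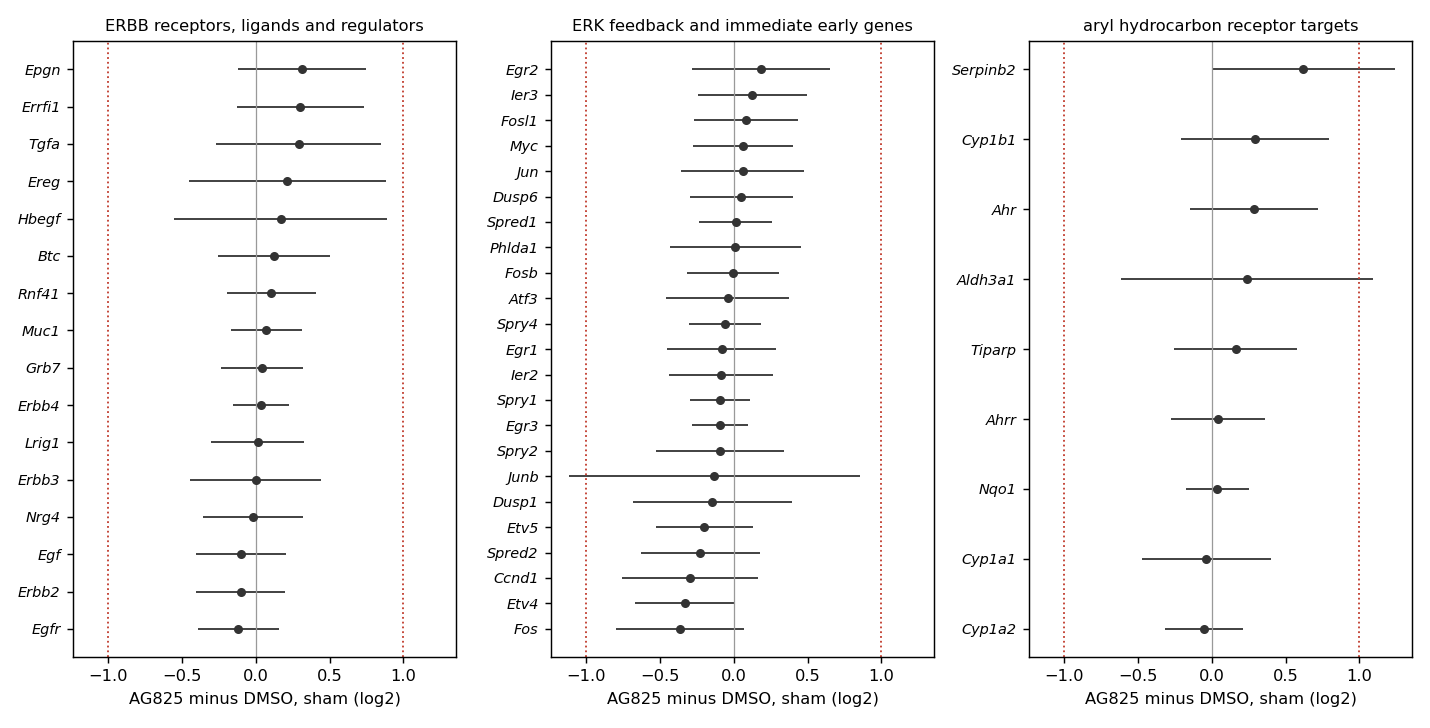
Each row is 1 measured gene of the ERBB (left), ERK (middle) or aryl hydrocarbon receptor (right) list; the point is the log2 difference, AG825 minus DMSO, in sham skin, the bar its unadjusted 95% confidence interval from limma, and the dotted lines mark 2-fold. In the ERBB panel every interval holds 0 and stays inside 2-fold, in the ERK panel only that of Junb reaches past 2-fold, and in the right panel those of Serpinb2 and Aldh3a1 do.

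Proliferation genes leaned 1 way. All 20 measured genes of the mitotic list were lower in AG825 skin, by -0.16 to -0.60, with a median of -0.34. None of the 20 passed, 5 had an unadjusted p under 0.05 (0.982% of all probe sets), and 1 (Plk1, a mitotic kinase) had groups without overlap (0.514% of all probe sets with AG825 lower). Over all probe sets 57.1% of differences were negative. Mki67, the proliferation marker Ki-67, had 9.635, 9.389, 10.131 and 9.518 in AG825 skin, against 10.870, 10.090, 10.113 and 9.989 in DMSO skin. DMSO A was the highest and 3 of 4 AG825 arrays the lowest, and the difference was -0.60 ± 0.311 (-1.25 to 0.05). Birc5 (survivin), which holds the chromosomal passenger complex, had 8.537, 8.171, 9.067 and 8.747 in AG825 skin, against 9.635, 9.199, 8.996 and 9.033 in DMSO skin. AG825 D reached into the DMSO range, and the difference was -0.59 ± 0.224. Cdk1, the kinase that drives entry into mitosis, differed by -0.47 ± 0.214.

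The list of genes for G1/S and DNA replication leaned the same way by less. Of 23 measured, 0 passed, 22 were negative and 1 was positive, with a median of -0.19, or -0.11 without DMSO A. Rrm1, the large subunit of ribonucleotide reductase, differed by -0.46 ± 0.153, and Tk1, thymidine kinase, by -0.31 ± 0.169 with no overlap between groups. A further probe set of Rrm1 differed by -0.16, and the GCOS signal of the first gave -0.21 at a pseudocount of 16. Genes of such lists are transcribed together, so a list of 20 does not count as 20 separate observations.

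The mitotic list kept 20 of 20 members negative when any 1 sham array was left out, when AG825 D and DMSO A were both left out and when the dChip or GCOS signals replaced the RMA values, with medians of -0.47 to -0.26. The score of the list, which is the mean over its members of log2 values centred on the 23 arrays, was -0.119, -0.148, 0.447 and 0.065 on AG825 B to E, against 0.721, 0.332, 0.338 and 0.253 on DMSO A to D. AG825 D lay above 3 of the 4 DMSO arrays, so the groups overlapped. Hair and melanocyte markers, given further on, moved across the same arrays, and their part in the proliferation values was not tested.

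In UV skin the drug difference of these genes had the other sign. At 6 h after UV all 20 mitotic genes were higher in AG825 than in DMSO skin, with a median of 0.51, and at 24 h all 20 were higher, with a median of 0.24. For G1/S genes 22 of 23 were positive at 6 h (median 0.40) and 19 of 23 at 24 h (median 0.29). Mki67 differed by 1.12 at 6 h and 0.73 at 24 h. The comparisons share no arrays with the sham comparison. Because sham skin was taken at 6 h only, the 24 h comparison differs from it in time since painting as well as in UV. The test of the change itself, the drug effect after UV minus that after sham, passed for 0 probe sets at 6 h (0%); the lowest adjusted p was 0.322, for the replication factor Pclaf, which stood at -0.46 in sham, 0.98 at 6 h and 0.39 at 24 h.

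The leukocyte list had positive differences throughout. All 17 measured markers of macrophages and leukocytes were higher, by 0.06 to 0.83, with a median of 0.39. Over all probe sets 42.9% of differences were positive. None of the 17 passed, and Cd14 alone had groups without overlap (0.382% of all probe sets with AG825 higher). The score was -1.270, -1.137, -0.364 and -1.015 on AG825 B to E, against -1.909, -1.405, -1.199 and -0.848 on DMSO A to D. AG825 D was the highest and DMSO A the lowest array. The median of the list was 0.19 without AG825 D and 0.22 without DMSO A. With both left out, 9 markers were positive and 8 negative, with a median of 0.00. In a bulk sample of skin, more cells of a type and more RNA per cell cannot be told apart.

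Among 24 measured cytokines and prostaglandin enzymes, 0 passed, 18 were positive and 6 negative, with a median of 0.12, which lay between 0.07 (without DMSO A) and 0.25 (without DMSO D) when 1 array was left out. Il1b, interleukin 1 beta, had 8.196, 8.592, 8.456 and 8.599 in AG825 skin, against 7.352, 7.273, 7.901 and 8.295 in DMSO skin. DMSO D overlapped the AG825 range, and the difference was 0.76 ± 0.305 (0.12 to 1.39). Cxcl2, a chemokine that draws neutrophils, had 7.339, 7.291, 6.327 and 6.385, against 5.890, 5.374, 5.871 and 5.890 in DMSO skin. The groups did not overlap, the AG825 arrays fell into a higher and a lower pair, and the difference was 1.08 ± 0.491 (0.06 to 2.10). Ptgs2, cyclooxygenase 2, differed by 0.31 ± 0.314 (-0.35 to 0.96).

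At 24 h after UV the drug differences of these cytokines lay below 0. Il1b was at -1.14, Cxcl2 at -1.82 and Ptgs2 at -0.89, against 0.07, -0.06 and -0.41 at 6 h. None of these 3 passed the test of the change at either time. At 24 h that change mixes UV with the longer time since painting. The interferon list had 14 positive and 3 negative of 17 in sham skin, with a median of 0.18 and 0 passing; without AG825 D it had 12 positive and 5 negative, with a median of 0.05. In UV skin all 17 were negative at 6 h (median -0.68) and all 17 positive at 24 h (median 0.69).

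No keratinocyte gene of the lists passed. Krt6a, a keratin of activated epidermis and of the hair follicle, had 13.218, 13.173, 12.415 and 13.508 in AG825 skin, against 11.606, 12.767, 13.121 and 13.774 in DMSO skin. Both the lowest and the highest array were DMSO, and the difference was 0.26 ± 0.426 (-0.63 to 1.15). The stress keratin and alarmin list had 9 positive and 3 negative of 12 (median 0.23) and the epidermal differentiation list 12 and 10 of 22 (median 0.04), with 0 passing in each. The basal epidermis list had 8 positive and 5 negative of 13 (median 0.03). Without DMSO A the median of the stress keratin list turned to -0.16 and that of the differentiation list to -0.23. Without AG825 E these medians were -0.07 and -0.05.

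The sign of the hair marker list rested on 1 array. Of 23 measured genes of the hair shaft, inner root sheath and growing follicle, 20 were negative and 3 positive, with a median of -0.22 and 0 passing. The score was 1.284, 1.320, -0.388 and 1.549 on AG825 B to E, against 0.785, 1.634, 1.335 and 0.836 on DMSO A to D. AG825 D was far below all others, and without it 16 genes were positive and 7 negative, with a median of 0.23. Lef1, a Wnt effector of the hair matrix, differed by -0.38 ± 0.151 with no overlap. The melanocyte list had 9 of 9 negative with a median of -0.41. It was led by Tyr (tyrosinase) at -0.77 ± 0.321 and Slc45a2, a melanosomal transporter, at -0.57 ± 0.177. Without AG825 D it had 3 positive and 6 negative, with a median of -0.32, and without DMSO A the median was -0.18. From the dChip signal 6 of 9 were negative, with a median of -0.18. From the GCOS signal at a pseudocount of 16, 7 of 9 were negative, with a median of -0.42.

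**Figure D4:**
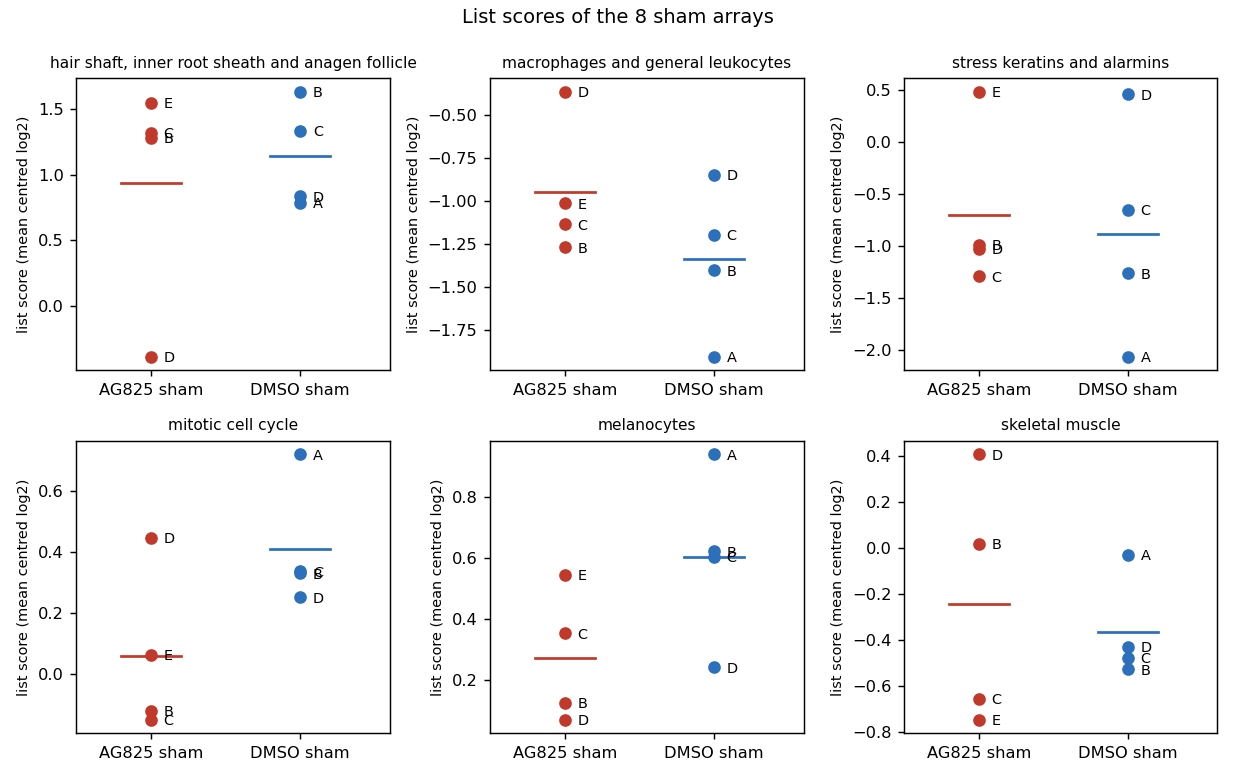
Each panel is 1 gene list, and each point 1 sham array marked by its replicate letter, at the list score on the y axis (mean of centred log2 values); AG825 sham is left of DMSO sham and the line is the group mean. AG825 D stands apart in the hair, leukocyte and skeletal muscle panels and DMSO A is at an extreme in the leukocyte, keratin, mitotic and melanocyte panels; the groups overlap in every panel.

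Markers of hair were high in both groups: Krt33a, a hair shaft keratin, averaged log2 levels of 12.7 in AG825 and 13.1 in DMSO skin, where the median probe set of an array lay between 7.57 and 7.69. Skeletal muscle genes, which mark the thin muscle layer under mouse skin, had 14 positive and 3 negative of 17 (median 0.13), and the mean difference of 0.12 turned to -0.10 without AG825 D. Over all 36 lists 531 of 604 genes were measured, and 0 passed. Of the 531, 16 (3.01%) had an unadjusted p under 0.05, beside 0.982% of all probe sets. Groups without overlap were found for 12 (2.26%), beside 0.896% of all probe sets. If no gene differed, shares of 0.05 and 0.0286 would be expected, and the list shares were below these rates as well. The lists take the brightest probe set of each gene, and the lists were chosen with results known.

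**Figure D5:**
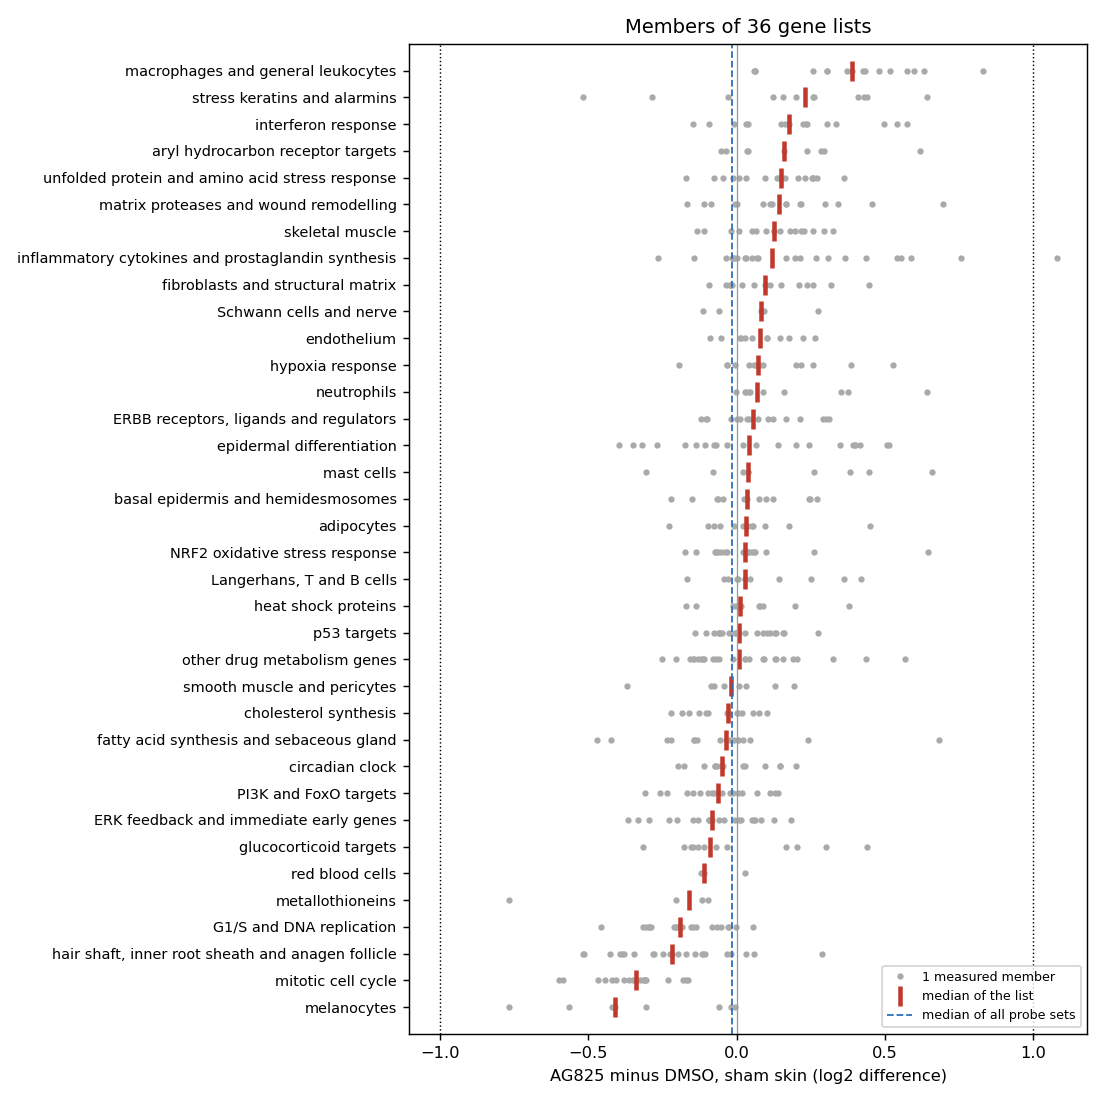
Each row is 1 of 36 gene lists, each grey point 1 measured member at its log2 difference, AG825 minus DMSO, in sham skin, the thick tick the list's median and the dashed line the median of all probe sets; dotted lines mark 2-fold. Medians run from -0.41 (melanocytes) to 0.39 (macrophages and leukocytes), and 1 member, Cxcl2, lies past 2-fold.

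The same drug was also compared with DMSO in UV skin, with different arrays behind the means. There too 0 probe sets passed, both at 6 h and at 24 h, with lowest adjusted p-values of 0.235 and 0.0553. At an unadjusted p under 0.05 there were 1415 and 2087 probe sets, against 193 in sham skin. The median size of a difference was 0.0973 at 6 h and 0.154 at 24 h, against 0.0677 in sham skin, and 111 and 53 probe sets reached 2-fold, against 6.

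Of the 193 probe sets at an unadjusted p under 0.05 in sham skin, 45 had the sham sign at 6 h and 95 at 24 h. The sham sign was kept at both times by 26. Over all probe sets the share with the same sign was larger at each time, at 41.7% at 6 h and 53.6% at 24 h. Across probe sets the sham difference correlated with the 6 h difference at r = -0.373 and with the 24 h difference at r = -0.0508. These are descriptions over genes that share arrays, and the groups differ in hair score as well: the hair list had a median drug difference of 1.84 at 6 h and 0.14 at 24 h, and its part in the correlation was not tested.

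For 1 probe set the drug effect at 24 h after UV differed from that after sham (0.00509% of those tested). Sham skin was taken at 6 h only, so UV and time since painting cannot be told apart in this comparison. Tmem14c, a mitochondrial membrane protein needed for heme synthesis, had 9.797, 9.540, 10.549 and 10.461 on AG825 sham B to E, against 8.404, 8.673, 9.960 and 9.747 on DMSO sham A to D, and the groups overlapped. At 24 h it had 7.820, 8.191 and 7.210 in AG825 skin, against 9.785, 9.720, 9.674 and 10.604 in DMSO skin, with no overlap. The drug difference was 0.89 in sham skin and -2.21 at 24 h, a change of -3.10 with an adjusted p of 0.0364 (limma). The call ended in 11 of the 15 fits that left out 1 array of these groups and held without AG825 sham C, DMSO sham C, DMSO sham D or AG825 24 h B. It also ended with the replicate letter as a block (limma, adjusted p of 0.246). At 6 h the drug difference of Tmem14c was -0.17.

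Detection calls gave no further contrast. By these calls 7 probe sets were present on all 4 AG825 sham arrays and absent on all 4 DMSO sham arrays, and 6 were the reverse. Igha, the heavy chain of immunoglobulin A, was the member of the first set with the largest log2 difference among those naming 1 gene, at 0.52. Ntn1, netrin 1, was in the second set with a difference of -0.12, while its brighter probe set was called present on all 8 arrays and differed by 0.20. For all 12 of these 13 probe sets that name 1 gene the log2 values of the groups overlapped.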

How the data were processed

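The study deposited 3 summaries of its 23 arrays. Main values came from the authors' deposited log2 table, which the submitters' processing notes credit to RMA without a version, with 19645 probe sets. The deposited dChip and GCOS tables hold signal on a linear scale with detection calls, per the file headers, and served as alternatives; percent present uses the dChip calls over the 19645 probe sets. No per-sample column was left unused. The array's annotation table gave 1 gene for 17825 probe sets (12106 genes), several for 445 and none for 1375. Signal over background and the number of arrays limit precision.

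limma 3.58.1 (R 4.3.3) fitted one mean for each of 6 groups over 23 arrays, with moderated variances and 20.75 degrees of freedom in total, two-sided. The Benjamini-Hochberg adjustment ran over the whole table, with 0.05 as the threshold. Adjusted p-values, errors and 95% intervals come from this fit. Present shares were compared by exact permutation (70 labelings). The steps were tested on simulated data, with noise drawn separately for each probe set and array. Such noise lacks variation shared across probe sets, so that test does not bear on the lack of passing probe sets.

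The comparison, the 36 lists and the named genes were chosen with earlier results of these data known. Each list gene has the probe set with its highest mean over 23 arrays. Named genes were the 10 smallest p-values of each direction among non-overlapping, detected probe sets that name 1 gene, up to 4 members with the smallest p of each list, a fixed set (Erbb2, Egfr, Erbb3, Erbb4, Errfi1, Hbegf, Epgn, Dusp6, Cyp1a1, Cyp1b1, Nqo1, Hmox1, Krt6a, Mki67, Ptgs2, Il1b, Cdkn1a, and Areg, which was not analysed here), genes with switched detection calls and the 5 smallest p-values of each interaction; part of these is printed. Members printed outside that rule (the 6 past 2-fold, Plk1, Ereg, Btc, Egf, Egr1, Myc, Junb, Aldh3a1, Krt33a) were chosen after their values were seen. Alternatives covered the other summaries, pseudocounts of 16 and 1, detection filters, array centring, covariates, array weights, a replicate block and leaving out each array.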

Additional observations from a re-analysis of the deposited data

Results flagged for a closer look

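An array was singled out where its gap to the nearest of the other 3 arrays of its group took up a larger share of the group's range than Dixon's 95% critical value for 4 samples. Of 232 groups of values examined, 27 met this; chance alone flags about 1 in 20 groups. No explanation was tested for any of them.

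AG825 D stood apart most often among the AG825 arrays. It was high for Cd14 at a log2 level of 9.08 and for Cyp1a1 at 9.507, and low for Npy at 8.192, Hbegf at 7.005, Tgfa at 9.014 and the metallothionein Mt4 at 10.05. Its list scores were high for fibroblasts and structural matrix at 0.293 and for other drug metabolism genes at 0.204, and low for hair at -0.388. AG825 E was high for the alarmin S100a9 at 13.247, for Ccn2 at 9.198, for the stress keratin score at 0.481 and for the neutrophil score at -0.498, and low for Ccnd1 at 10.149.

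DMSO A was high for Npy at 10.318, Mki67 at 10.87, Rrm1 at 10.02 and the PI3K and FoxO score at 0.163, and low for Hmox1 at 8.268. DMSO D was high for Epgn at 9.108, the chemokine Cxcl1 at 6.73 and the mast cell score at 0.035, and low for Gdf10 at 6.805, Dusp6 at 9.583 and Cyp1b1 at 8.727. DMSO B was low for Cxcl2 at 5.374, and DMSO C was high for Fos at 9.838.

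The drug effect on Tmem14c differed between 24 h after UV and sham by -3.096 on the log2 scale in the interaction test (limma, adjusted p of 0.0364), with a drug difference of -2.21 at 24 h and 0.89 after sham. The call was lost in 11 of the 15 fits that left out 1 array. It was also lost with the replicate letter as a block (limma, adjusted p of 0.246). Sham skin was taken at 6 h only, so UV and time since painting cannot be told apart here.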

How the results depend on the processing

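The count of 0 probe sets between AG825 sham and DMSO sham skin held in all 21 other settings (limma), with 111 to 743 at an unadjusted p under 0.05. The lowest adjusted p came nearest to the threshold with the GCOS signal, at 0.0531 with a pseudocount of 16, for Aldh1a3, a retinaldehyde dehydrogenase. For the change at 24 h after UV, leaving out 1 array gave 0 to 1 probe sets, with lowest adjusted p-values up to 0.273. Of 79 named genes 65 kept their sign in every setting and 14 changed it in at least 1: Npr1, Brca1, Erbb2, Egfr, Erbb3, Erbb4, Dusp6, Cyp1a1, Nqo1, Cdkn1a, Cdca5, S100a9, Krt6a and Krt16. Sizes also moved: with GCOS at a pseudocount of 1, Sox9 was at 0.70, Hbegf at 0.73, Ptgs2 at 0.71, Etv4 at -0.85 and Ska2 at -0.09, and with dChip Ska2 was at -0.19 and Ccn2 at 0.26. The median kept its sign in all 13 list settings, chosen after seeing the data, for 16 of 36 lists; the cause of the turns was not tested. Deviations of AG825 and DMSO sham arrays of the same letter correlated at 0.348 (B), 0.234 (C) and -0.137 (D). For B and C the same-letter value was the highest of both arrays, with the next at 0.157 for B and 0.0898 for C. AG825 D correlated most with DMSO A (0.341), and DMSO D with AG825 E (0.465). Whether the letters pair the samples was not tested. With the letter as a replicate block the sham count stayed at 0, with 378 at an unadjusted p under 0.05, the 6 h change passed for 1 probe set (Clec7a, adjusted p of 0.0480) and the 24 h change for 0 (lowest adjusted p of 0.246, Tmem14c).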

Other observations

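Of the probe sets that name 1 gene, that of Defb3, a beta-defensin of inflamed epidermis, had the widest pooled spread within the sham groups. It stood at 6.832, 6.006, 6.387 and 11.579 on AG825 B to E, against 5.782, 6.527, 7.723 and 11.911 on DMSO A to D, so that AG825 E and DMSO D were far above the other 6 arrays. S100a9, an alarmin of neutrophils and activated keratinocytes, had 9.103, 9.281, 9.657 and 13.247 in AG825 skin, against 7.001, 8.103, 10.371 and 13.244 in DMSO skin, with the same 2 arrays highest. Krtap19-1, a keratin-associated protein of the hair shaft, had 11.592, 11.886, 6.955 and 12.242 in AG825 skin, against 9.687, 12.550, 12.361 and 9.985 in DMSO skin, and was lowest on AG825 D.

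The dChip table also held 3045 probe sets that the log2 table does not, 64 of them array controls. Among these 0 passed between AG825 sham and DMSO sham skin (limma, lowest adjusted p of 0.999), and 38 had an unadjusted p under 0.05.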
